A study of Homo sapiens with 6 samples.

Results

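RNA-seq of human bronchial epithelial cells (HBECs), an immortalized cell line, was examined for 48 genes of the G1 to S transition, DNA replication licensing and mitosis, chosen by name from the 61228 gene names of the count table. All 6 libraries came from wild-type cells treated for 24 h, 3 with cockroach extract (CRE) and 3 with CRE + VAF347, an agonist of the aryl hydrocarbon receptor (AhR) given before the extract. AhR is a ligand-activated transcription factor, and CRE is the allergen that both groups shared. Cells given VAF347 alone and untreated cells are not analysed here, so that the comparison gives the effect of the agonist in the presence of the allergen. The genes were set apart into classes, 22 named G1 control, 9 named S phase and 17 named G2/M. These names are labels and not strict phases of action: the S phase class holds licensing genes, whose products act from G1, and PCNA.

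D-type cyclins bind CDK4 and CDK6 and, with cyclin E and CDK2, phosphorylate RB1 and its relatives RBL1 and RBL2, which releases E2F factors to transcribe the genes of DNA replication. Among those genes are the subunits of the MCM helicase, which CDC6 and CDT1 load onto origins in G1, a step called licensing, and PCNA, the sliding clamp of the polymerases. Later in the cycle the MuvB core with MYBL2 and FOXM1 drives the genes of mitosis through a different promoter element, the CHR. Expression of all of these depends on how many cells of a culture are cycling, and in bulk RNA fewer cells in a phase and less RNA per cell cannot be told apart.

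The 9 S phase genes all had lower mean levels with VAF347. Genes of this kind are known targets of E2F, so an E2F element in their promoters follows from the choice of genes. The letters are given as a description and are no separate support for the lower levels. Windows of 300 bases, 250 before and 50 after the annotated start, were taken from RefSeq on GRCh38.p14 and were found for 37 of the 48 genes. The start used lay 172706 bases from the GENCODE v44 gene start for RB1, 3703 for CDK4 and 2092 for LIN54. It was 1669 bases away for CCND3, 1233 for PLK1 and 543 for MCM7. Such windows may miss another promoter of the gene, and those of RB1, CDK4 and CCND3 held no E2F element. In S phase the 2 genes without a window were MCM4 and MCM5. The E2F element was searched on both strands as TTTCCCGC, TTTCGCGC, TTTGCCGC or TTTGGCGC. It was present in 7 of the 7 S phase promoters with a window, in 6 of 16 (37.5%) of G1 control and in 1 of 14 (7.14%) of G2/M, against 925 of 27305 (3.39%) of all promoters of this length. The stretches below show the element and the 8 bases on either side in the 7 S phase genes, read 5′ to 3′ on the strand of the gene, with the element in capitals. Where 12 letters are in capitals, a match on each strand overlaps the other.
CDC6, chr17:40287878-40287901, plus strand: cattcggaTTTGGCGCgagcgcgg
CDT1, chr16:88803746-88803769, plus strand: gggcgcccGCGGGAAAtttggcgg
MCM2, chr3:127598405-127598432, plus strand: gaaccactTTTCGCGCGAAAcctggttg
MCM3, distal, chr6:52284901-52284924, minus strand: atggtacgTTTCCCGCcaccgcgg
MCM3, proximal, chr6:52284731-52284754, minus strand: tcggaagtTTTCGCGCcggggtgg
MCM6, distal, chr2:135876576-135876603, minus strand: gctttgcaTTTGGCGCGAAAtccctttc
MCM6, proximal, chr2:135876514-135876541, minus strand: tggtcaggTTTGGCGCGAAAtctccagc
MCM7, distal, chr7:100101569-100101592, minus strand: ctcggaccGCGGGAAAcccggcgc
MCM7, proximal, chr7:100101391-100101414, minus strand: gggcgacgTTTCGCGCcaatttcg
PCNA, chr20:5126666-5126689, minus strand: cgtcagggGCGGGAAAaggcgtgc
The element began between 187 bases before the start, in the distal copy of MCM7, and 8 bases after it, in CDC6, with the first transcribed base counted as 1. MCM3, MCM6 and MCM7 each held it at 2 places.

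The full 250 bases before the start of MCM6 are given because they hold the element at both places as an overlapping pair and overlap no annotated exon.
MCM6, chr2:135876444-135876693, minus strand: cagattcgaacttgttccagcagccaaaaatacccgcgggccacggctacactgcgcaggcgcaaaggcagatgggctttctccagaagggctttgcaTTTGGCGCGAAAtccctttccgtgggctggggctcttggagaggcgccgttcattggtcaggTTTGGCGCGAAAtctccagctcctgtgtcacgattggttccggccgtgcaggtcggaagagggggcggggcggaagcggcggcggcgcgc
The mitotic genes differed in their letters. The CHR, searched as TTTGAA on both strands, was in 6 of 14 (42.9%) G2/M promoters, 2 of 16 (12.5%) G1 control promoters and 0 of 7 S phase promoters, against 15.4% of all promoters. It is shown in capitals at its 2 places in TOP2A, the topoisomerase that untangles mitotic chromosomes, as the contrasting promoter type.
TOP2A, chr17:40417897-40418146, minus strand: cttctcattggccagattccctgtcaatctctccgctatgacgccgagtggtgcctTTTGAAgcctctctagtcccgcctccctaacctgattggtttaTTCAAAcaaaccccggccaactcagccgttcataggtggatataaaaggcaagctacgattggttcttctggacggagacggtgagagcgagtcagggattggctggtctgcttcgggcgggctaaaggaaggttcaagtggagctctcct
The CCAAT box, searched as CCAAT on both strands, was in 5 of 7 (71.4%) S phase, 5 of 16 (31.2%) G1 control and 9 of 14 (64.3%) G2/M promoters, against 35.8% of all. The core of the AhR response element, searched as GCGTG on both strands, was in 6 of 7 (85.7%), 4 of 16 and 7 of 14, against 36.4% of all. Base composition of the windows was not taken into account in these shares. The windows of E2F7 and BUB1, both called in the test below, held no such core, and neither did that of CDC6. CCND1 and MCM5, also called below, had no window. These matches describe the letters of the windows, and binding was not measured in these libraries.

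The libraries held 8873160 to 10750283 counts, so that 1 count was worth 0.093 to 0.113 CPM, the count scaled to a common library size by TMM normalization. Labels were checked with AhR target genes. CYP1A1, a xenobiotic-metabolizing enzyme, had 5 to 8 counts in the CRE libraries and 412 to 460 with VAF347, and CYP1B1 was higher by 3.14 on the log2 scale. Of 13 airway epithelial markers 11 passed the filter on low counts, among them the basal keratin KRT5 with 108 to 169 counts, while the basal markers TP63 and KRT14 had at most 2 counts in any library. KRT17 (-0.27), KRT19 (-0.38) and ITGB4 (-0.36) of this list were called lower with VAF347 on the log2 scale. CRE replicate 3 stood apart from the other CRE libraries: its mean chi-square per gene was 9.25 against replicate 1 and 8.95 against replicate 2, while those 2 differed by 2.49 and the VAF347 libraries by 1.79 to 2.58. It had the highest CPM of the 3 CRE libraries for 28 of the 48 genes, 6 of them among the 9 of S phase, and results that rest on it are given with and without it below. Leaving it out raised the calls over all genes, from 207 higher and 626 lower of 15373 to 423 and 864 of 15586. Calls gained in that fit are thus not particular to the genes named. Summed TPM of 4 endothelial markers was 9.41 to 10.37 with CRE and 6.03 to 7.46 with VAF347, and that of 8 leukocyte markers 25.8 to 29.0 and 17.7 to 23.9, with PTPRC, which defines leukocytes, at no more than 2 counts. The part of these differences in the results below was not tested.

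All 48 genes passed the filter and were tested among 15373 genes. Together they took up 0.907% to 0.983% of each library, and the lowest count of any of them was 61. With edgeR's quasi-likelihood test at an adjusted p under 0.05, CCND1, E2F7 and BUB1 were higher and MCM5 was lower with VAF347. These 3 and 1 of 48 stand beside 1.35% of all tested genes that were higher and 4.07% that were lower. None of the 48 had a log2 difference beyond 0.5 in either direction, a bound that 2.21% of all genes passed together with the adjusted p, and at an unadjusted p under 0.05 there were 7 higher and 9 lower, beside 8.87% and 11.9% of all genes. Log2 differences, always CRE + VAF347 against CRE, ran from -0.29 to 0.38 with a median of -0.02, against 0.01 for all genes. The 3 libraries of each group did not overlap for 9 genes that were higher and 11 that were lower, beside 12.5% and 14.8% of all genes.

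**Figure D1:**
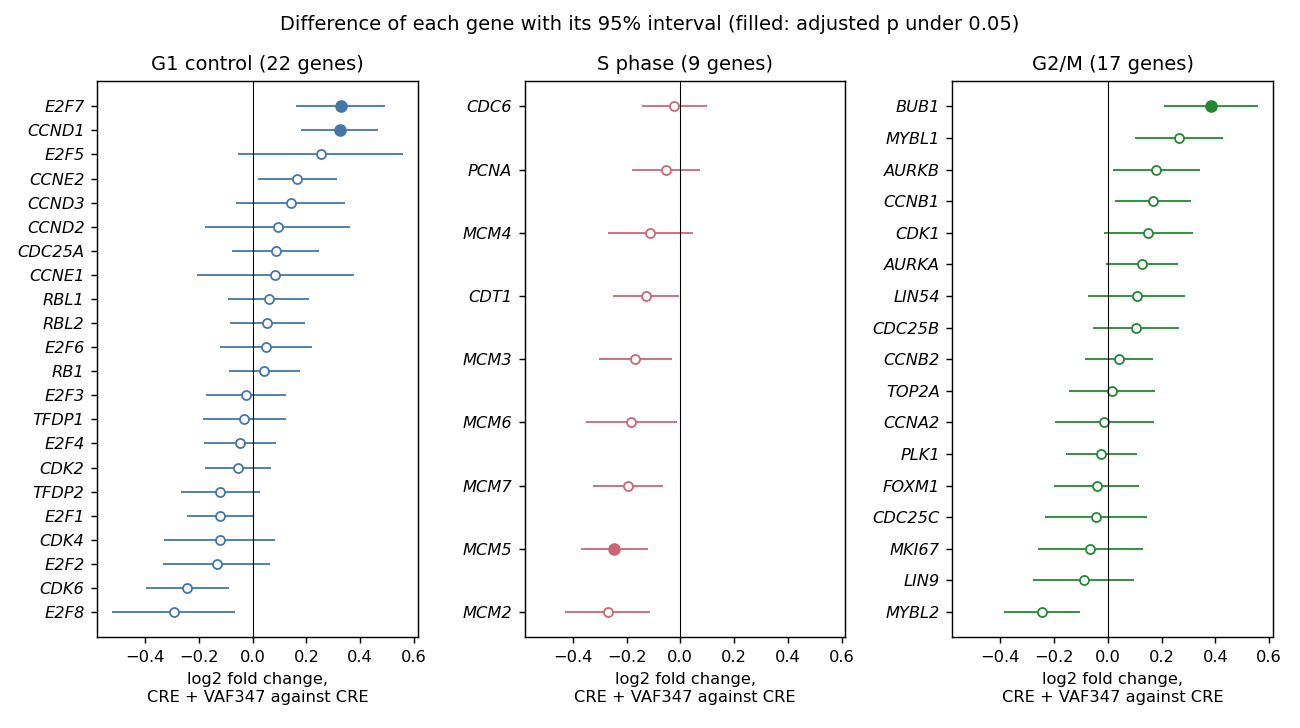
Log2 fold change of each gene, CRE + VAF347 against CRE (x axis), with its 95% interval from edgeR, for 22 G1 control, 9 S phase and 17 G2/M genes (y axis). Filled points have an adjusted p under 0.05. The S phase points all lie below 0, from -0.27 to -0.02, and the other panels spread to both sides.

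By phase, the spread of the genes was as follows. In S phase 0 genes had a log2 difference above 0 and 9 below it, with a median log2 difference of -0.17. Of the 9, 6 were lower without overlap between groups, beside 14.8% of all genes. In G1 control 12 were above 0 and 10 below, with a median of 0.05, and in G2/M 10 were above and 7 below, with a median of 0.04. Without overlap, G1 control had 4 higher and 4 lower and G2/M 5 higher and 1 lower, where 12.5% of all genes were higher. All genes were read in the same 6 libraries, so genes of a class are not separate observations. Without CRE replicate 3 the S phase median was -0.11, still with 9 of 9 below 0, and G2/M had 14 of 17 above 0 with a median of 0.09. The median of all genes tested gives the scale of these shifts, and no test over a group of genes was made. The G1 control median was 0.008 with a GC offset and -0.005 with limma on log2(TPM + 1), so it has no settled sign.

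MCM2 to MCM7 encode the 6 subunits of the replicative helicase. All 6 had lower means with VAF347, by log2 differences of -0.27 to -0.11 in the fit with all libraries. MCM2 had a normalised level of 489, 487 and 561 CPM in the CRE libraries and 439, 436 and 401 CPM with VAF347. The groups did not overlap, and the log2 difference of -0.27 ± 0.07 (SE) had an adjusted p of 0.0546 in edgeR's quasi-likelihood test. With CRE replicate 3 left out it was -0.20, and that of MCM5 was -0.22. MCM5 had 319, 331 and 341 CPM with CRE and 277, 277 and 280 CPM with VAF347. All VAF347 libraries lay below all CRE libraries, and the means of 330 ± 11.0 and 278 ± 2.03 CPM (SD, n = 3) gave a log2 difference of -0.25 ± 0.06, with an adjusted p of 0.0293 in the same edgeR test across all genes. The gene lies at chr22:35400134-35425431 on the plus strand (GRCh38, GENCODE v44).

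MCM5 kept its edgeR call without CRE replicate 1 (adjusted p = 0.0437) and without CRE replicate 3 (adjusted p = 0.00696). The call was lost without CRE replicate 2 (adjusted p = 0.0785) and without VAF347 replicate 1, 2 or 3 (adjusted p = 0.101, 0.124 and 0.0998), with log2 differences of -0.26 to -0.25 in these 4 fits. It was also lost with limma on TPM, where the log2 difference was -0.33.

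The other subunits had the same sign. MCM7 had means of 929 and 813 CPM (log2 difference -0.19), MCM3 of 321 and 286 CPM (-0.17) and MCM6 of 229 and 202 CPM (-0.18), each with no overlap between groups but with an adjusted p over the threshold. MCM4 had 681 ± 59.2 and 631 ± 26.3 CPM, and its libraries overlapped. It had 642, 651.5 and 749 CPM with CRE and 654, 636 and 602 CPM with VAF347, so its difference rested largely on CRE replicate 3. Over the 16 alternatives the log2 difference ran from -0.15 to -0.04 for MCM4 and from -0.24 to -0.09 for MCM6. MCM2 (0.0233) and MCM7 (0.0196) passed the edgeR threshold on the adjusted p when CRE replicate 3, the highest library for MCM2, was left out. Calls over all genes also rose in that fit, to 423 higher and 864 lower. On the TPM scale, which corrects for transcript length, the 6 subunits summed to 1454, 1433 and 1770 with CRE and 1307, 1360 and 1350 with VAF347. The lowest CRE sum was above the highest VAF347 sum, and CRE replicate 3 was far above the rest. MCM7 overlaps AP4M1 and MCM2 overlaps ENSG00000285600 on the opposite strand.

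The loading factors and the clamp did not pass the test. CDC6, the ATPase that recruits the helicase to origins, had 161, 159 and 153 CPM with CRE and 154, 156 and 156 CPM with VAF347. The groups overlapped, and the log2 difference of -0.02 had a 95% interval from -0.14 to 0.10. CDT1, its partner in loading, had means of 109 ± 2.78 and 99.8 ± 1.80 CPM, a log2 difference of -0.13 without overlap that did not pass the test. PCNA was the most abundant of the 48 genes, with a mean of 1191 ± 102 TPM in CRE libraries. It had 660, 624 and 638 CPM with CRE and 632, 619 and 601 CPM with VAF347, so that the groups overlapped. Its log2 difference of -0.05 had an interval from -0.18 to 0.07, which does not reach the estimate for MCM5. The interval of MCM5 itself, from -0.37 to -0.12, overlaps that of PCNA, so the 2 genes are not separated.

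**Figure D2:**
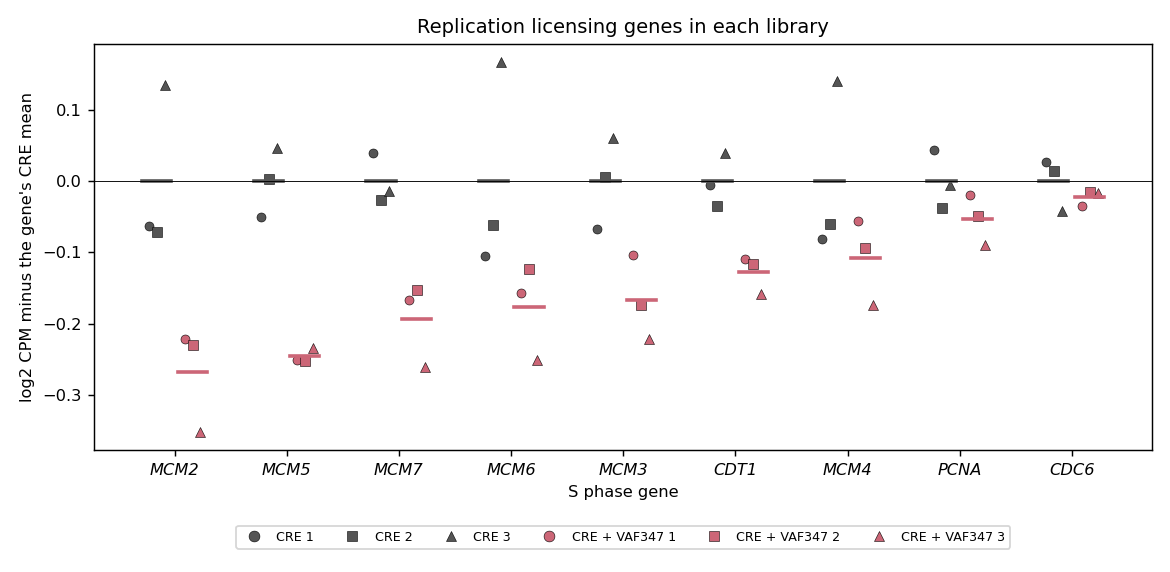
Log2 CPM of each S phase gene (x axis) in each of the 6 libraries, minus the mean of its CRE libraries (y axis). Symbols mark replicates, grey is CRE, red is CRE + VAF347 and short lines are group means. The red means lie below 0 for all 9 genes, and CRE replicate 3 is the highest library for MCM2, MCM3, MCM4, MCM5, MCM6 and CDT1.

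Summed over the 9 genes, S phase TPM was 2753, 2684 and 3258 in the CRE libraries and 2586, 2607 and 2565 with VAF347. Each CRE library had 7 or 8 of the 9 genes above the mean of the 6 libraries, and the VAF347 libraries had 1, 0 and 0. Base composition differed between the phases too. The mean GC content of S phase transcripts had a median of 51.6%, against 48.5% in G1 control, 45.1% in G2/M and 49.7% over all genes with a mean log2 CPM over 3. Across those 11085 genes Spearman's rho between GC content and log2 difference was -0.35, and across the 48 it was -0.36, as a description over genes of the same 6 libraries. With a GC offset for each library the S phase median was -0.15 with 9 of 9 genes below 0, but MCM5 had a log2 difference of -0.19 and an adjusted p of 0.0862 in edgeR, and CDT1 was left with -0.05.

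**Figure D3:**
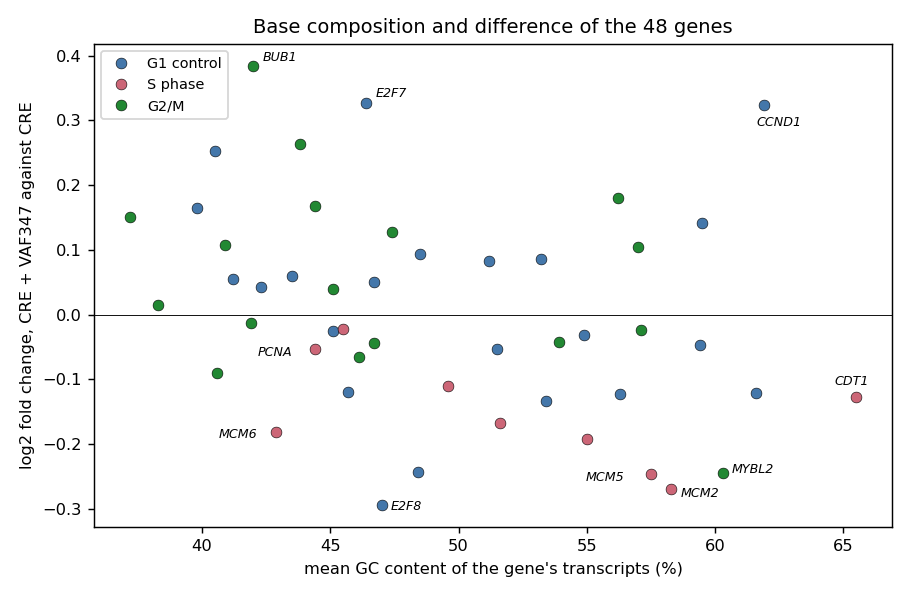
Mean GC content of the transcripts of each of the 48 genes in percent (x axis) against the log2 fold change, CRE + VAF347 against CRE (y axis), coloured by phase. Genes of higher GC content tend to lie lower (rho of -0.36), while CCND1, at 61.9% GC, lies among the highest.

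In G1 control the D-type cyclins, which link growth signals to CDK4 and CDK6, were headed by CCND1, which passed the test. CCND1 (chr11:69641156-69654474, plus strand) had 99.6, 95.5 and 105 CPM with CRE and 117, 128 and 131 CPM with VAF347. The groups did not overlap, and the means of 99.95 ± 4.67 and 125 ± 7.15 CPM (SD, n = 3) gave a log2 difference of 0.32 ± 0.065 with an adjusted p of 0.0164 in edgeR's quasi-likelihood test. Cyclin D1 was the most abundant D-type cyclin after cyclin D3 by length-corrected level, at 38.1 ± 4.96 TPM with CRE and 46.7 ± 3.29 TPM with VAF347. The call held with a GC offset (adjusted p = 0.00656 in edgeR) and was lost without CRE replicate 2 or VAF347 replicate 2 or 3, at adjusted p = 0.066, 0.0938 and 0.0964, and with limma on TPM.

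CCND3 had 88.2, 69.9 and 88.2 CPM with CRE and 89.0, 85.4 and 97.2 CPM with VAF347, with overlap between groups. CCND2, the least abundant gene of G1 control by TPM, had 20.6, 14.8 and 19.7 CPM and then 20, 18.9 and 19.9 CPM, also with overlap. The log2 difference was 0.14 for CCND3, with an interval from -0.06 to 0.34, and 0.09 for CCND2, with an interval from -0.18 to 0.36. Both intervals take in the value of CCND1, so these data do not separate the 3 cyclins. The E-type cyclins, which act with CDK2 at the start of S phase, did not pass the edgeR test, with CCNE2 at 46.5 and 52.1 CPM in mean (log2 difference 0.17, no overlap) and CCNE1 at 12.6 and 13.3 CPM (0.08).

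The G1 kinases had log2 differences below 0. CDK4, the gene of G1 control with the highest TPM (376 ± 46.6 with CRE), had 231, 233 and 182 CPM with CRE and 213, 194 and 186 CPM with VAF347. CRE replicate 3 was the lowest of all 6 libraries and set the overlap: with it the log2 difference was -0.12 and without it -0.23, with an adjusted p of 0.0183 in edgeR's fit without that library. CDK6 had 78.2, 72.6 and 83.4 CPM with CRE and 69.4, 64.7 and 64.0 CPM with VAF347. It had no overlap between groups, but the log2 difference of -0.24 ± 0.07 did not pass the edgeR test (adjusted p = 0.0752). CDK2 was at 221 and 212 CPM (-0.05). CDK4 overlaps TSPAN31, CDK6 overlaps CDK6-AS1 and CCND1 overlaps LTO1 on the opposite strand, and whether the counting used strand is not given in the sources used here.

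The pocket proteins, which hold E2F factors in check, had small differences. RB1 had 103, 99.1 and 100 CPM with CRE and 107, 106 and 98.4 CPM with VAF347. RBL1 (p107) had 99.3, 108 and 115 CPM and then 115, 115 and 107 CPM, and RBL2 (p130) 112, 109 and 124 CPM and then 121, 120 and 117 CPM. Groups overlapped for all 3. Their log2 differences were 0.04, 0.06 and 0.06, with intervals from -0.09 to 0.18, from -0.09 to 0.21 and from -0.09 to 0.20. The estimate for CCND1, 0.32, lies outside each of them. Its own interval, from 0.18 to 0.47, overlaps those of RBL1 and RBL2.

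**Figure D4:**
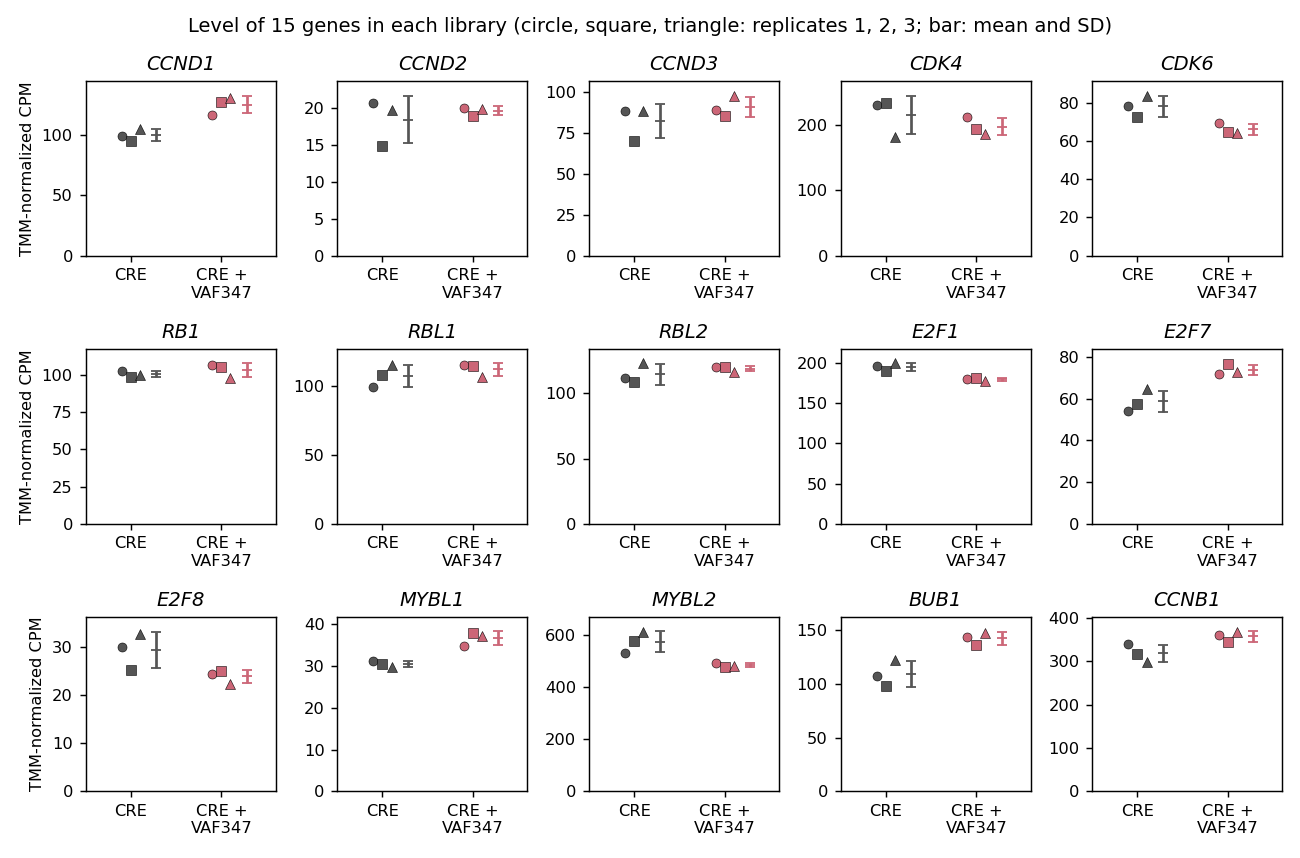
TMM-normalized CPM (y axes, from 0) of 15 genes in the 3 CRE and 3 CRE + VAF347 libraries. Circles, squares and triangles are replicates 1, 2 and 3, and bars are the mean and SD. The groups are apart for CCND1, CDK6, E2F1, E2F7, E2F8, MYBL1, MYBL2, BUB1 and CCNB1.

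Among the E2F factors, the atypical repressors E2F7 and E2F8, which bind DNA without a DP partner, lay on opposite sides of 0. E2F7 (chr12:77021248-77065569, minus strand) had 54.2, 57.5 and 64.5 CPM with CRE and 71.9, 76.6 and 72.7 CPM with VAF347. The groups were apart, and the log2 difference of 0.33 ± 0.075 had an adjusted p of 0.0293 in edgeR's quasi-likelihood test. Leaving out any library but CRE replicate 3 ended the call, at adjusted p = 0.0867 to 0.141 with log2 differences of 0.27 to 0.34. Without CRE replicate 3 it was 0.40 with an adjusted p of 0.000908, and with limma on TPM it was 0.22 and did not pass. E2F8 had 29.9, 25.2 and 32.6 CPM with CRE and 24.4, 24.9 and 22.4 CPM with VAF347. It was lower without overlap, though the closest libraries were 25.2 and 24.9 CPM apart, and the log2 difference of -0.29 ± 0.105 had an adjusted p of 0.136 in edgeR. The log2 ratio of E2F7 to E2F8 was 0.86, 1.19 and 0.98 with CRE and 1.56, 1.62 and 1.70 with VAF347, for a pair that was picked after its values were seen and so is given without a test.

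E2F1, an activating E2F whose own promoter held the E2F element, had 196, 191 and 201 CPM with CRE and 181, 181 and 178 CPM with VAF347. All VAF347 libraries were lower, by a log2 difference of -0.12 ± 0.055 that did not pass edgeR's test (adjusted p = 0.241). The activators E2F2 and E2F3 were at 41.5 and 37.9 CPM (-0.13) and at 51.8 and 50.9 CPM (-0.03), with overlap. The repressors E2F4 and E2F6 had log2 differences of -0.05 and 0.05, and E2F5, the least counted of the 48, had 6.64 and 7.93 CPM (0.25) with an interval from -0.05 to 0.56. The DP partners TFDP1 and TFDP2 had -0.03 and -0.12, and CDC25A, the phosphatase that activates CDK2, had 0.09.

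In G2/M, BUB1, a kinase of the spindle checkpoint, was the 1 gene that passed the test. It lies at chr2:110637528-110678063 on the minus strand. BUB1 had 107, 97.5 and 122 CPM with CRE and 143, 136 and 147 CPM with VAF347. The groups were well apart, and the means of 109 ± 12.1 and 142 ± 5.69 CPM (SD, n = 3) gave a log2 difference of 0.38 ± 0.08 with an adjusted p of 0.0186 in edgeR's quasi-likelihood test. The adjusted p was 0.0480 with a GC offset and 8.4e-05 without CRE replicate 3, and lay between 0.0553 and 0.0972 when any of the other 5 libraries was left out. With limma on TPM the log2 difference was 0.39 and did not pass.

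The MYB factors of the MuvB complex lay on opposite sides of 0. MYBL2, which is itself a target of E2F and joins MuvB in S phase, had 532, 575 and 612 CPM with CRE and 493, 477 and 481 CPM with VAF347. The groups did not overlap, and the log2 difference of -0.25 ± 0.065 had an adjusted p of 0.0539 in edgeR's test and of 0.0222 without CRE replicate 3. Its relative MYBL1 was at 30.5 ± 0.77 and 36.6 ± 1.65 CPM, a log2 difference of 0.26 without overlap that did not pass (adjusted p = 0.0655 in edgeR). The log2 ratio of MYBL1 to MYBL2 was -4.09, -4.24 and -4.36 with CRE and -3.83, -3.66 and -3.69 with VAF347, also a pair picked after its values were seen. The MuvB subunits LIN9 and LIN54 had -0.09 and 0.11, and FOXM1, the forkhead factor of G2, had -0.04.

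CCNB1, cyclin B1 of the mitotic kinase, had the highest TPM of the G2/M genes, 446 ± 11.4 with CRE and 489 ± 20.3 with VAF347. It had 339, 317 and 299 CPM with CRE and 360, 344 and 368 CPM with VAF347. The groups did not overlap, though the log2 difference of 0.17 ± 0.065 had an adjusted p of 0.168 in edgeR. CDK1, its catalytic partner, was at 145 and 161 CPM (0.15), CCNB2 at 87.3 and 89.7 CPM (0.04) and CCNA2 at 105 and 104 CPM (-0.01). The mitotic kinases AURKA and AURKB had log2 differences of 0.13 and 0.18 without overlap, neither of which passed the test, and PLK1 had -0.02. The phosphatases CDC25B and CDC25C had 0.10 and -0.04.

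Proliferation markers in common use did not separate the groups. MKI67, the Ki-67 antigen, had means of 649 ± 85.9 and 620 ± 37.8 CPM, with a log2 difference of -0.07 and an interval from -0.26 to 0.13. CRE replicate 3 was the highest library for MKI67, with 602, 596 and 748 CPM in the CRE libraries and 586.5, 613 and 661 CPM with VAF347. TOP2A, whose promoter is printed above, had 552 ± 51.1 and 558 ± 18.2 CPM, with 0.01 and an interval from -0.14 to 0.17. Over the 16 alternatives the sign changed in 1 for MKI67 and in 8 for TOP2A, so neither has a settled sign. Summed G2/M TPM was 2288, 2226 and 2598 with CRE and 2425, 2380 and 2446 with VAF347, so that the groups overlapped through CRE replicate 3, and summed G1 control TPM was 1396, 1421 and 1526 and then 1463, 1402 and 1446.

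Wider lists of the same pathways, 149 further genes of which 148 were tested, gave 0 higher and 3 lower in edgeR's test, with 15 higher and 12 lower at an unadjusted p under 0.05. Over all genes 1.35% and 4.07% were called, and 8.87% and 11.9% passed unadjusted. Of 52 other replication genes 18 had a log2 difference above 0 and 34 below, with a median of -0.06, and without CRE replicate 3 the median was -0.03 with 1 called higher and 3 lower. LIG1, the ligase that joins Okazaki fragments, was the 1 that passed, at 136 ± 5.33 and 112 ± 2.32 CPM with a log2 difference of -0.28 and an adjusted p of 0.0203 in edgeR, which was 0.0592 with a GC offset and over 0.05 without CRE replicate 2 or any VAF347 library. Of 69 other mitosis genes 47 were above 0 and 22 below, with a median of 0.05 and 0 past the test, against 10 higher and 1 lower at an unadjusted p under 0.05. Without CRE replicate 3 their median was 0.07, with 7 called higher, 1 lower and 20 higher unadjusted. Of all 15586 genes in that fit, 423 were called higher and 864 lower, and 1579 were higher unadjusted. With a GC offset the median of these mitosis genes was 0.003 with 39 above 0. Among 27 other regulators of G1 and CDKs, MYC, a transcription factor that promotes entry into the cycle, fell from 62.3 ± 3.38 to 32.6 ± 5.01 CPM (-0.94, adjusted p = 0.000432 in edgeR). CDKN2B (p15), an inhibitor of CDK4 and CDK6, fell from 101 ± 0.57 to 54.6 ± 5.04 CPM (-0.88, adjusted p = 7.8e-05 in edgeR), and both are changes larger than that of any of the 48 genes.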

How the data were processed

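Poly(A)-selected RNA of 6 HBEC libraries was sequenced as paired-end reads by the authors. The deposited expected counts were estimated by the authors with Salmon against hg38 (per the labels' processing notes, version not given) and summed per gene name, without scaling to depth. The authors' TPM values, deposited alongside, correct these for transcript length and library total. A deposited table of the authors' own fold changes and p-values was not used. The annotation and the use of strand are not given in the sources used here. All 61228 gene names are in GENCODE v44, from which positions and GC content were taken. Columns were matched to samples by the labels.

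Expected counts were rounded (14.5% of values were not whole) and fitted with edgeR 4.0.16 (R 4.3.3), using TMM factors, its filterByExpr step, the quasi-likelihood test and Benjamini-Hochberg adjustment over 15373 genes, 3 libraries against 3, called at an adjusted p under 0.05. Standard errors were computed from each log2 fold change and its F statistic. Nothing in the sources says that the libraries are separate cultures, so p-values measure the spread between these libraries, which may be technical. An exact permutation test of 3 against 3 cannot go below a p of 0.1, and each gene was therefore judged by the fit over all genes. Alternatives were DESeq2 1.42.0, limma 3.58.1 on log2(TPM + 1) and log2(TPM + 0.1), other filters on low counts, the replicate block, a GC offset per library (a spline with 5 degrees of freedom) and leaving out each library. On simulated counts over 15163 genes edgeR recovered 87 of 100 genes changed by a log2 fold change of 1. It recovered 99 of 100 changed by 2, with 11 false calls. Smaller changes were not simulated. The genes set apart into classes had log2 differences from -0.29 to 0.38. The recovered shares therefore do not tell how often differences of that size would be called.

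The 48 genes, their phases and the wider lists were chosen with earlier results of these data known. Genes given by library are those called, the D-type cyclins, CDK4, CDK6, RB1, RBL1, RBL2 and E2F1, and in each phase the gene of highest TPM and the largest difference in each direction (in S phase, where all were below 0, the one nearest 0).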

Additional observations from a re-analysis of the deposited data

How the results depend on the processing

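All 9 S phase genes had log2 differences below 0 in each of the 16 alternatives, which called 0 to 3 of them. The G1 control median was 0.047 and became 0.008 with a GC offset, 0.010 with the replicate block and a GC offset, and -0.005, -0.004 and -0.005 with limma on log2(TPM + 1), on log2(TPM + 0.1) and without a filter. Of the 48 genes, those called higher numbered 0 in the 3 limma fits, and those called lower numbered 3 with DESeq2, 5 without a filter on low counts, 2 with at least 10 counts in every library, and 0 with a GC offset, with the block and a GC offset, and with limma. Of the other cell cycle genes, 5 were called higher and 5 lower without a filter, and 1 lower with limma without a filter. The calls over all genes moved too. Those called lower numbered 447 with DESeq2, 1035 without a filter and 654 with at least 10 counts in every library. They numbered 476 with a GC offset, 394 with the block and a GC offset, and 12 to 53 with limma. Those called higher numbered 551 without a filter and 20 to 34 with limma. When 1 library was left out, the 48 genes gave 0 to 3 called higher and 0 to 5 called lower, a G1 control median of -0.003 to 0.035 and an S phase median of -0.200 to -0.109, and the other genes 0 to 9 higher and 2 to 7 lower. Over all genes these fits called 70 to 423 higher and 235 to 864 lower. The cause was not tested. With the replicate block alone, 3 of the 48 were called higher and 1 lower, as without it. Same-numbered libraries correlated in their deviations by 0.071, 0.104 and 0.046, so the numbers were not taken to pair them. The smallest log2 difference called among the 48 genes in the main fit was -0.25, that of MCM5. Some alternatives called smaller ones, such as -0.19 for MCM7 without a filter on low counts.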
